A study of Mus musculus with 20 samples.

Results

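The clustered protocadherin genes of the mouse were examined in peak lists of 4 histone marks and of the transcription factor EGR1 from excitatory and inhibitory neurons of the brain. The 58 genes were taken by symbol (names beginning Pcdha, Pcdhb or Pcdhg) from the RefSeq annotation of chromosome 18, out of 21632 genes in all. There were 14 genes of the alpha cluster, 22 of the beta cluster and 22 of the gamma cluster, and 57 of the 58 code for protein (Pcdhgb8 is annotated as a pseudogene). They span chr18:36930285-37841873 of the mm10 genome, from the start of Pcdha1 to the end of the gamma cluster.

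Clustered protocadherins are cadherin-like adhesion proteins that give each neuron a surface identity, by which the branches of 1 cell recognise and avoid each other. Each alpha and gamma gene has a variable first exon with its own promoter, which is spliced to constant exons shared by the whole cluster, whereas beta genes are single-exon genes. A neuron picks a few of the alternate promoters at random, with the help of the DNA-binding protein CTCF and the cohesin ring, which bring a chosen promoter to distant enhancers. Pcdhac1, Pcdhac2, Pcdhgc3, Pcdhgc4 and Pcdhgc5, the C-type genes at the ends of the alpha and gamma clusters, are not chosen this way and are used more broadly by neurons. Mutation of Pcdhgc4 affects neuron survival in mice, and Pcdhac2 is the family member used by serotonergic neurons for axon tiling.

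CUT&RUN, in which an antibody guides a nuclease to the chromatin it binds so that the cut fragments can be sequenced, was run on flow-sorted nuclei from whole brain of 8-week-old mice. The excitatory and the inhibitory groups carry the same genotype label, Sun1 f/f | Emx1Cre (+). Emx1 drives Cre in the lineage of the dorsal forebrain, where mostly excitatory neurons and glia arise, and the Sun1 protein spans the membrane of the nucleus. The sources used here do not give the gate that separated the neuron types. Each antibody (H3K4me1, H3K4me3, H3K27ac, H3K27me3 and EGR1) had 2 excitatory and 2 inhibitory libraries, which makes 10 groups and 20 libraries, and no label ties the libraries of a group to separate animals. All p-values therefore measure the spread between these libraries only. H3K4me3 marks promoters, H3K27ac active promoters and enhancers, H3K4me1 enhancers, and H3K27me3 chromatin held silent by Polycomb; EGR1 is a zinc-finger factor induced by neuronal activity.

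For every gene the measure was the covered percent, the share of the window from 500 bases before to 2500 bases after the gene start that lies inside the authors' peaks. In bulk nuclei a promoter marked in fewer nuclei and a promoter marked more weakly in each nucleus cannot be told apart. First exons of a cluster resemble each other, and the sources used here do not give how reads that fit several copies were placed, so values of neighbouring members may share reads. The lists held 49899 to 321846 peaks. The excitatory H3K4me3 library 1 stood apart at the members: it had a peak at 27 of the 58, against 51 in excitatory library 2 and 49 and 52 in the inhibitory libraries. At other genes the 4 H3K4me3 libraries had a peak at 63.9% and 67.9% (excitatory) and at 66.1% and 63.2% (inhibitory). The neuron markers did not follow the labels throughout. The H3K4me3-covered percent of Gad2, an enzyme of GABA synthesis, was 9.70 and 38.6 in excitatory and 52.8 and 63.4 in inhibitory libraries, and that of its sister enzyme Gad1 was 17.1 and 18.7 in excitatory and 18.7 and 17.6 in inhibitory libraries. Slc32a1, the vesicular GABA transporter, had 42.8 and 20.6 in excitatory and 16.5 and 6.0 in inhibitory libraries. That of Slc17a7, the vesicular glutamate transporter of cortical neurons, was 33.1 and 42.1 in excitatory and 59.6 and 54.9 in inhibitory libraries, the opposite of its label. None of these 4 differences passed the test (limma adjusted p of 0.0614, 0.902, 0.406 and 0.0513 in the order given). Over the 12 windows of the 10 inhibitory neuron markers, H3K27ac covered a mean of 13.9% and 8.74% in excitatory and 0% and 0.836% in inhibitory libraries. EGR1 followed the labels there, at 5.35% and 4.32% in excitatory and 10.6% and 10.2% in inhibitory libraries. The 10 windows of 8 excitatory forebrain markers had EGR1 means of 15.6% and 14.8% in excitatory and 4.39% and 7.23% in inhibitory libraries. Their H3K4me3 means overlapped, at 24.0% and 38.8% against 31.4% and 29.6%. The median H3K4me3 difference of their 7 tested windows was 14.9 points, with 1 called higher and 1 lower.

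C-type genes carried the active marks and EGR1, and where alternate genes carried a mark it was mostly narrow H3K4me3. All 5 C-type genes had peaks of H3K4me3, H3K27ac and EGR1 in all 4 libraries of each antibody. Their strongest H3K27ac peak had a q-value under 0.05 at 0 of 5 in either excitatory library and at 4 and 2 in inhibitory libraries. Of all H3K27ac peaks, 2.57% and 4.94% in excitatory and 31.8% and 35.1% in inhibitory lists had one. Among 17274 other genes with a known strand, 59.3% had H3K4me3, 44.1% had H3K27ac and 52.8% had EGR1 in all 4 libraries. Of the 53 alternate genes, 20 had H3K4me3, 5 had EGR1 and 0 had H3K27ac in all 4 libraries.

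For the other antibodies the members as a whole were sparsely covered. H3K27ac was present in both libraries at 6 members (10.3%) in excitatory and 10 (17.2%) in inhibitory neurons, against 50.1% and 52.3% of other genes. EGR1 was present at 13 (22.4%) and 12 (20.7%) members, against 58.4% and 54% of other genes, and H3K4me1 at 3 (5.17%) and 5 (8.62%), against 59.3% and 54.9%.

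**Figure D1:**
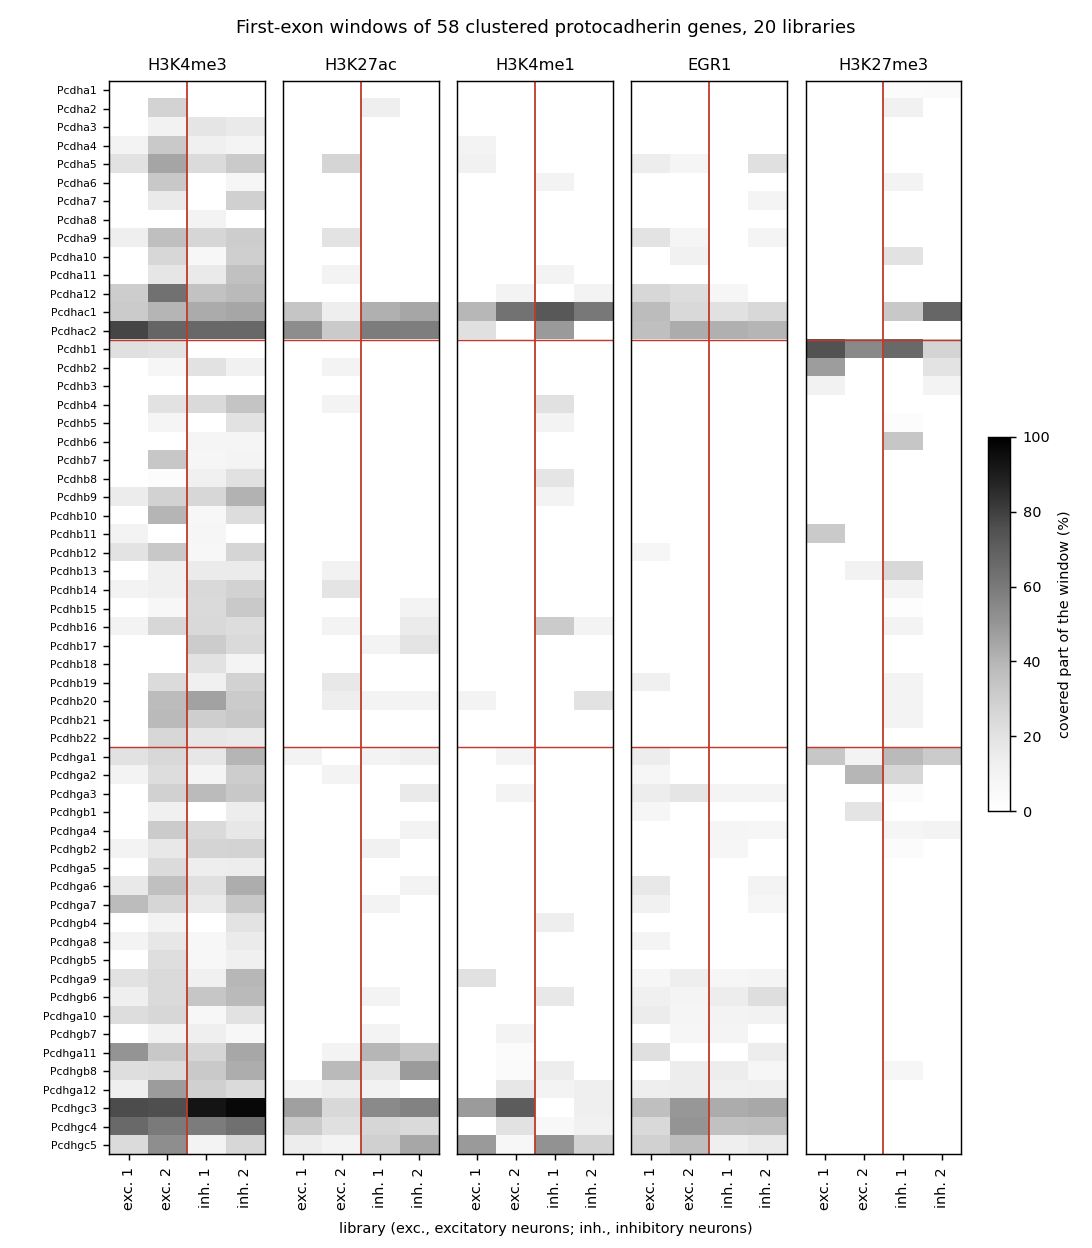
Covered percent of the first-exon window (grey scale, 0 to 100%) for the 58 genes in order along the chromosome (rows) in each library (columns), with excitatory libraries left of the inhibitory ones in each panel. Horizontal lines part the alpha, beta and gamma clusters. The 5 C-type rows at the ends of alpha and gamma are filled in every library for H3K4me3, H3K27ac and EGR1, though pale in places for Pcdhgc5 and Pcdhac1, and the beta rows are almost empty for EGR1.

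Pcdhgc3, the first C-type gene of the gamma cluster, had the highest H3K4me3 of the 58 genes. Its covered percent was 76.3 and 75.5 in excitatory libraries, against 93.0 and 97.2 in inhibitory libraries. The groups did not overlap, and the normalized difference of -18.5 ± 5.07 points (SE) did not pass the test (limma adjusted p = 0.0939). Pcdhac2, the last alpha gene, had 78.5% and 67.5% in excitatory and 66.8% and 66.4% in inhibitory libraries. Pcdhgc4 had 66.2% and 59.9% in excitatory and 59.3% and 63.4% in inhibitory libraries, so that the types overlapped. Pcdhac1 had 30.9% and 39.9% in excitatory and 43.3% and 44.6% in inhibitory libraries, over a shorter stretch. The peak at Pcdhac1 was nevertheless the strongest member peak by the authors' p-value in every H3K4me3 library. It ranked in the top 2.84% and 0.928% of the excitatory lists and in the top 0.590% and 0.619% of the inhibitory lists. Pcdhgc5 had the least H3K4me3 of the C-type genes and the widest spread, with 23.5% and 52.4% in excitatory libraries and 9.70% and 26.1% in inhibitory libraries.

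Acetylation of the C-type genes was highest at Pcdhac2 and Pcdhgc3, the 2 with the highest H3K4me3. The lowest was Pcdhgc5 in the excitatory libraries (14.2% and 9.70%) and Pcdhgc4 in the inhibitory libraries (26.3% and 24.4%, against 28.6% and 44.5% at Pcdhgc5). H3K27ac covered 52.9% and 31.4% of the Pcdhac2 window in excitatory libraries, against 59.1% and 58.2% in inhibitory libraries. It covered 46.9% and 25.1% at Pcdhgc3 in excitatory libraries, against 54.1% and 56.7% in inhibitory libraries. At 4 of the 5 C-type genes both excitatory libraries lay below both inhibitory ones, the exception being Pcdhgc4. This split was common in the H3K27ac lists, where 39.8% of all 14459 tested windows had it. After quantile normalization, which evens out total coverage, no C-type gene passed the test for H3K27ac, and the limma adjusted p was 0.451 for Pcdhgc5 and higher for the other 4.

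EGR1 sat on the start of the C-type genes. Over C-type genes and the 4 libraries, a mean of 99.8% of the first 100 bases after the start was covered, against 44.3% for other genes, 37.8% for alternate gamma, 18.1% for alternate alpha and 2.18% for beta genes. Summits of the strongest EGR1 peak of each C-type gene had a median of 59.0 and 51.0 bases after the start in excitatory libraries. The medians were 21.0 bases before and 52.0 bases after it in inhibitory libraries. Pcdhgc3 had the highest EGR1-covered percent of the members, 36.6 and 49.3 in excitatory and 42.9 and 44.1 in inhibitory libraries. Pcdhgc5 had 28.2% and 37.0% in excitatory against 12.6% and 15.3% in inhibitory libraries, without overlap and short of the threshold (difference 14.0 ± 4.27 points, limma adjusted p = 0.267). With the same number of strongest peaks from each library the difference turned to -0.31 points. The EGR1 lists held 93858 and 98534 peaks in excitatory and 49899 and 62412 in inhibitory libraries. In the EGR1 lists 42.2% of all 13835 tested windows had both excitatory libraries above both inhibitory ones.

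**Figure D2:**
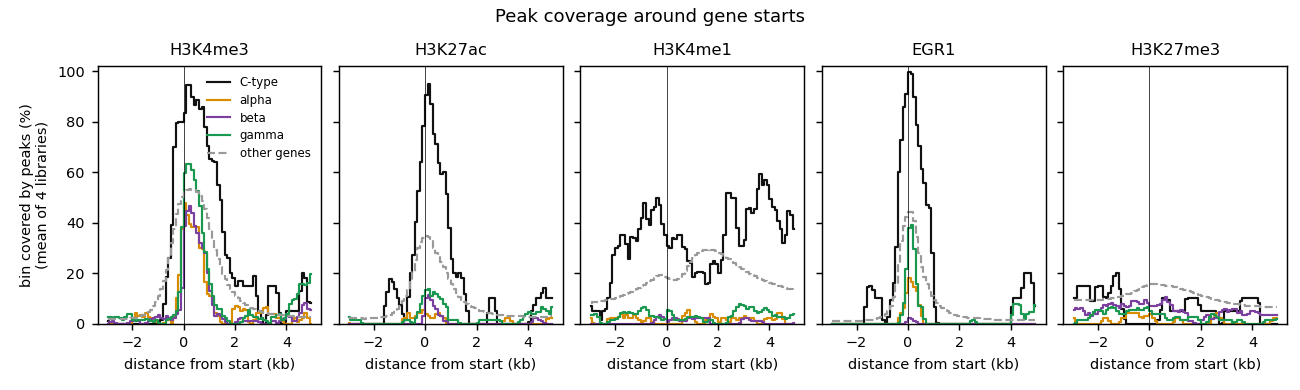
Share of each 100-base bin covered by peaks (%, mean over the genes of a class and the 4 libraries) against the distance from the gene start (kb), for C-type, alternate alpha, beta and gamma genes and other genes. At the start C-type genes exceed other genes for H3K4me3, H3K27ac and EGR1, and H3K4me3 of the alternate classes begins at the start itself.

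H3K4me1 was found at C-type genes in a less regular way. Only Pcdhac1 and Pcdhgc5 had it in all 4 libraries, against 48.3% of other genes, and no alternate gene did. Pcdhac1 had 39.3% and 62.7% in excitatory and 72.4% and 60.5% in inhibitory libraries. Pcdhgc3 had 48.2% and 71.1% in excitatory libraries, against 0 and 12.6% in inhibitory libraries. Its difference of 51.0 ± 13.5 points was the first in order of p among the members and did not pass the test (limma adjusted p = 0.213). With a window of 1000 bases on each side of the start the difference at Pcdhgc3 was -1.91 points (limma adjusted p = 0.974).

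Alternate genes had short H3K4me3 peaks that began at the first exon. The strongest peak of each alternate gene had a median width of 326 and 664 bases in excitatory and 289 and 615 bases in inhibitory libraries. At C-type genes the strongest peak had 2014 and 1196 bases (excitatory) and 1949 and 1993 bases (inhibitory). The summit of the strongest peak lay downstream of the start for 18 of 22 and 43 of 46 alternate genes with a peak in the excitatory libraries. In the inhibitory libraries it did so for 37 of 44 and 44 of 47. At 500 bases before the start H3K4me3 covered 0% of alternate alpha, 1.27% of beta and 2.63% of alternate gamma bins, against 31.8% for other genes and 39.3% for C-type genes. In the first 100 bases the values were 48.0%, 38.7% and 59.9%, against 52.2% for other genes.

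H3K4me3 without the other antibodies was found at part of the alternate genes. In excitatory neurons 21 of 53 alternate genes had H3K4me3 in both libraries, and 12 of these had none of the other 4 antibodies in both libraries. In inhibitory neurons 42 of 53 had it, and 30 of these had none of the others. Among other genes with H3K4me3, 0.814% in excitatory and 0.572% in inhibitory neurons had it alone by the same count. H3K27ac accompanied H3K4me3 at 1 of the 21 alternate genes in excitatory neurons (Pcdhga12) and at 5 of the 42 in inhibitory neurons, against 78.2% and 83.3% of other genes. The H3K4me3 peaks at alternate genes were weaker than those at C-type genes. The median −log10 p of the strongest peak per gene was 3.10 and 4.36 in excitatory and 3.32 and 4.43 in inhibitory libraries. At C-type genes it was 6.75 and 8.83 in excitatory and 9.08 and 12.2 in inhibitory libraries. That peak had a q-value under 0.05 at 5 of 22 and 35 of 46 alternate genes in excitatory libraries. In inhibitory libraries it did so at 20 of 44 and 35 of 47. Of all H3K4me3 peaks, 28.4% and 26.5% in excitatory and 23.9% and 47.6% in inhibitory lists had one. The lists also ended at unlike p-values of the authors. The largest was 0.0483 to 0.0498 in the H3K4me3 and H3K27ac lists and 0.0988 to 0.0999 in the H3K4me1 and H3K27me3 lists. In the EGR1 lists it was 0.00481 to 0.00491, so presence of a peak is not an equal call across antibodies. How far these cuts or the strength of the peaks bear on the missing second mark was not tested.

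**Figure D3:**
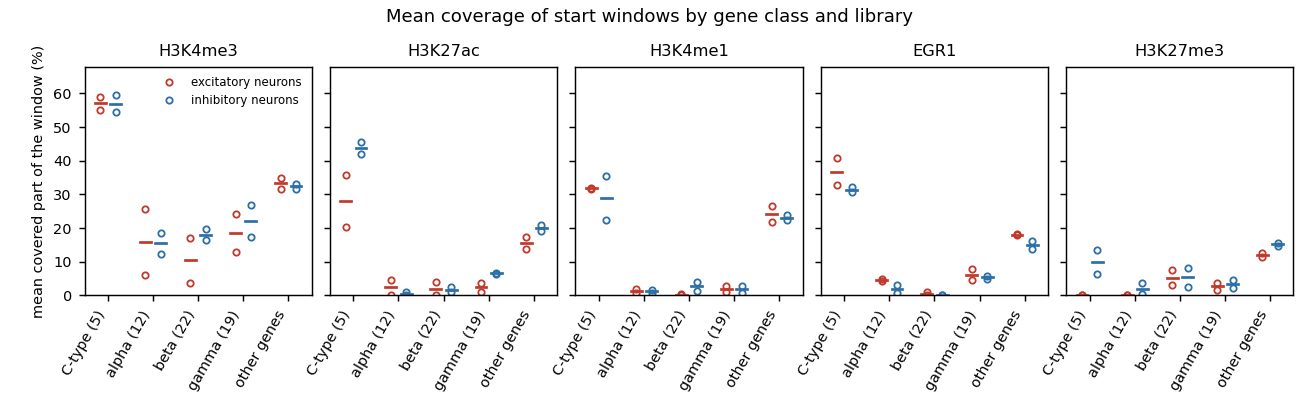
Mean covered percent of the start window (y axis, %) for C-type genes, alternate alpha, beta and gamma genes and other genes, by antibody. Circles are the 2 libraries of a neuron type and bars their mean, excitatory left of inhibitory. C-type genes lie above other genes for H3K4me3, H3K27ac and EGR1 and alternate classes below them for every antibody shown.

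Among the 12 alternate alpha genes H3K4me3 was highest at Pcdha12, the one nearest to the constant exons. Its covered percent was 30.1 and 63.0 in excitatory and 35.1 and 38.5 in inhibitory libraries. Pcdha1, at the other end, had no H3K4me3 peak in any library, as had Pcdhb3 and 26.3% of other genes, and Pcdha2 and Pcdha8 had one in a single library each. Spearman's rho between the order of the 12 alternate alpha genes and their mean covered percent was 0.61, as a description over 12 neighbouring genes measured in the same libraries. By library it was 0.28 and 0.33 in excitatory and 0.48 and 0.72 in inhibitory neurons. The same measure was 0.48 over the 22 beta genes, where excitatory library 1 alone gave -0.15, and 0.31 over the 19 alternate gamma genes.

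EGR1 at alternate genes followed the cluster. Pcdhga3, Pcdhga9, Pcdhgb6, Pcdhga10 and Pcdhga12 had an EGR1 peak in all 4 libraries. Pcdha5, Pcdha9 and Pcdha12 had it in both excitatory libraries, and no alternate alpha gene had it in both inhibitory libraries. The EGR1-covered percent of Pcdha12 was 25.9 and 22.8 in excitatory libraries, against 7.73 and 0 in inhibitory libraries (difference 15.5 ± 4.67 points, limma adjusted p = 0.260). Of the 22 beta genes, 20 had no EGR1 peak in any library, against 35.5% of other genes. The exceptions, Pcdhb12 and Pcdhb19, had one in excitatory library 1 only. Of the 13 members with EGR1 in both excitatory libraries, 12 also had H3K4me3 there, which is 12 of the 26 members with H3K4me3. Among other genes 96.3% of those with EGR1 had H3K4me3, and 91.0% of those with H3K4me3 had EGR1. In inhibitory neurons the counts were 12 of 12 and 12 of 47, against 98.4% and 86.1% of other genes. The EGR1 lists ended at a smaller p-value than the H3K4me3 lists, so a missing EGR1 peak met a stricter cut.

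The comparison of neuron types at each first exon used the covered percent of all windows of the genome, with a limma fit per antibody and p-values adjusted over every window tested. For H3K4me3, 2 members fell in excitatory neurons relative to inhibitory neurons and 0 rose, out of 54 members with a peak in at least 2 libraries. Over the 15246 windows tested 2.41% fell and 3.77% rose, or 6.18% in all, so the share of members called was close to the background. At an unadjusted p under 0.05, 14 members were lower and 1 was higher, against 9.57% and 10.4% of all windows. The 2 that passed are beta genes. Pcdhb17 had no H3K4me3 peak in either excitatory library, against 30.6% and 24.5% covered in the inhibitory libraries (difference -27.2 ± 4.91 points, limma adjusted p = 0.0289). Pcdhb15, 2 genes before it, had 0 and 6.10% in excitatory libraries against 24.3% and 32.0% in inhibitory libraries (difference -26.9 ± 4.60 points, limma adjusted p = 0.0248). The count of members called was 0 in 9 of the 12 alternatives, among them the scale without quantile normalization, peaks at −log10 p of at least 3 and the loss of excitatory library 2 or of either inhibitory library. In part of these a gene had too few covered libraries to be tested, as Pcdhb17 without an inhibitory library. Calls over all windows changed too, to 282 of 15246 without quantile normalization and 741 of 14033 at −log10 p of at least 3. Pcdhb17 also had H3K27ac in the inhibitory libraries only, at 9.73% and 18.8%, a pattern of 1.07% of other genes (difference -11.6 ± 5.52 points, limma adjusted p = 0.393).

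**Figure D4:**
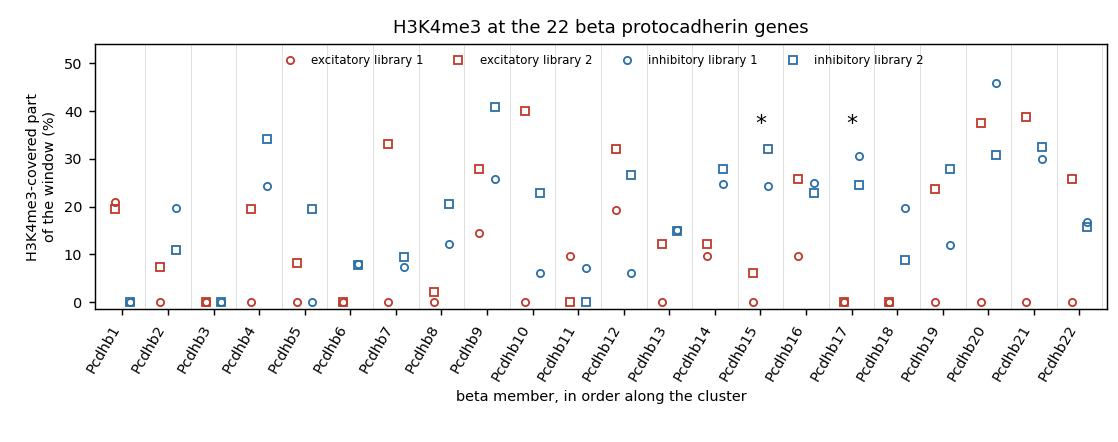
H3K4me3-covered percent of the window (y axis) for the 22 beta genes in order along the cluster, by library, excitatory in red left of inhibitory in blue. Asterisks mark Pcdhb15 and Pcdhb17, which passed the test. Excitatory library 1 (red circles) lies at 0 for 16 of the 22 genes, and excitatory library 2 (red squares) reaches the inhibitory values at many of them.

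The beta cluster held much of the difference in H3K4me3, and excitatory library 1 decided its size. H3K4me3 peaks in both libraries were found at 5 of 22 beta genes in excitatory and at 18 in inhibitory neurons. For alternate alpha genes the counts were 4 and 7 of 12, and for alternate gamma genes 12 and 17 of 19. Over all members they were 26 (44.8%) in excitatory neurons and 47 (81.0%) in inhibitory neurons, against 61.8% and 61.7% of other genes. Excitatory library 2 alone had a peak at 17 beta genes, and excitatory library 1 at 6. The mean covered percent of beta genes was 3.82 and 16.9 in the excitatory libraries, against 16.4 and 19.6 in the inhibitory libraries. Excitatory library 1 lay below both inhibitory libraries at 35 of the 58 members and above both at 7. For excitatory library 2 these counts were 16 and 21, so the direction over the members was not shared by the 2 excitatory libraries. Both excitatory libraries lay below both inhibitory ones at 16 members, 9 of them beta genes, against 21.9% of the 15246 windows tested.

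In a stretch of the beta cluster from Pcdhb14 to Pcdhb18, both excitatory libraries lay below both inhibitory ones, with the exception of Pcdhb16. This stretch was singled out after its values were seen, and the split was not particular to it. The neighbour Pcdhb13 had 0 and 12.2% in excitatory against 15.1% and 15.0% in inhibitory libraries. Pcdhb8 had 0 and 2.13% in excitatory against 12.3% and 20.5% in inhibitory libraries. Pcdhb14 had 9.70% and 12.2% in excitatory against 24.8% and 27.8% in inhibitory libraries (difference -17.4 ± 4.42 points, limma adjusted p = 0.0765). Pcdhb18 had no H3K4me3 peak in excitatory libraries against 19.7% and 8.87% in inhibitory libraries (adjusted p = 0.167). Pcdhb16, between them, had 9.70% and 25.8% in excitatory and 24.9% and 22.9% in inhibitory libraries, so the groups overlapped. Pcdhb6, Pcdhb17 and Pcdhb18 were the members with H3K4me3 in both inhibitory and neither excitatory library, a pattern of 0.567% of other genes. Pcdhb1, the first beta gene, was the member with the reverse pattern (1.36% of other genes), at 21.0% and 19.5% in excitatory and 0% in both inhibitory libraries (difference 18.8 ± 5.21 points, adjusted p = 0.0960).

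In the gamma cluster Pcdhgb6 and Pcdhgb2 followed in the order of p. Pcdhgb6 had 13.2% and 24.6% in excitatory against 33.3% and 38.3% in inhibitory libraries (difference -18.3 ± 4.41 points, limma adjusted p = 0.0656). Pcdhgb2 had 9.70% and 16.5% in excitatory against 27% and 27.7% in inhibitory libraries (difference -16.3 ± 4.35 points, adjusted p = 0.0872). Neither passed the test, and in both the groups did not overlap. Pcdhgb6 also had less EGR1 in excitatory libraries, 11.8% and 8.93% against 13.9% and 22.2% in inhibitory ones, the first member in order of p for EGR1 (difference -13.7 ± 3.67 points, limma adjusted p = 0.218). Pcdhga4 had EGR1 in the inhibitory libraries only, at 7.97% and 7.60%, a pattern of 0.475% of other genes.

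For H3K4me1, H3K27ac, H3K27me3 and EGR1 limma called 0 members and 0% of all windows at an adjusted p of 0.05. Unadjusted p-values under 0.05 were reached by 2 of 10 tested members for H3K4me1, 1 of 12 for H3K27ac, 1 of 9 for H3K27me3 and 4 of 19 for EGR1. Over all windows these shares were 16.5%, 14.3%, 20.8% and 12.8%. For H3K27ac the first member in order of p was Pcdhga11, with 0 and 9.70% in excitatory against 39.7% and 33.7% in inhibitory libraries (difference -29.0 ± 8.49 points, limma adjusted p = 0.239). Its H3K4me3 did not follow, at 50.7% and 32.2% in excitatory and 26.3% and 44.4% in inhibitory libraries. For H3K4me1, Pcdhb16 had no peak in excitatory libraries against 31.1% and 9.80% in inhibitory libraries, a pattern of 1.25% of other genes (difference -22.3 ± 8.42 points, limma adjusted p = 0.253).

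Polycomb-associated H3K27me3 was sparse over the members, and those with it in all 4 libraries were the first genes of the beta and gamma clusters. By library, 4 and 2 of 22 beta genes in excitatory and 10 and 3 in inhibitory libraries had an H3K27me3 peak. The shares of other genes were 29.5% and 31.2% in excitatory and 37.6% and 34.3% in inhibitory libraries. In both libraries of a type H3K27me3 was found at 2 members in excitatory and 5 in inhibitory neurons. These are 3.45% and 8.62% of the 58, against 24.3% and 28% of other genes. Pcdhb1 and Pcdhga1, the first genes of the beta and gamma clusters, had it in all 4 libraries, as had 19% of other genes. Its covered percent at Pcdhb1 was 74.7 and 54.7 in excitatory and 66.1 and 27.3 in inhibitory libraries, and at Pcdhga1 it was 32.9 and 9.83 in excitatory and 38.6 and 31.2 in inhibitory libraries. Regions of H3K27me3 shared by all 4 libraries also lay in the gaps before these genes, such as chr18:37219831-37224804 before Pcdhb1 and chr18:37647105-37651841 before Pcdhga1. No C-type gene of the gamma cluster had H3K27me3 in any library, as for 49.8% of other genes. Pcdha1, Pcdhac1 and Pcdhga4 had it in both inhibitory and neither excitatory library, a pattern of 4.37% of other genes. These peaks were weak, as were most of their lists. No member peak of H3K27me3 or of H3K4me1 had a q-value under 0.05 in the authors' lists. Over the whole lists, 0.00488% to 0.00990% of H3K27me3 peaks and 0.00870% to 9.61% of H3K4me1 peaks had one.

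Pcdhac1 was the C-type gene with an H3K27me3 peak, and only in the inhibitory libraries. Its covered percent was 0 in both excitatory libraries, against 32.1 and 66.8 in the inhibitory libraries (difference -44.6 ± 15.5 points, limma adjusted p = 0.207). The strongest peak of the window had the authors' −log10 p of 1.91 and 1.15 in these inhibitory libraries. These ranked in the top 8.43% and 72.1% of their lists, so the wider coverage came with the weaker call. The difference passed the test on the log2(percent + 1) scale (adjusted p = 0.0419) and under no other alternative. On that scale 991 of 9521 windows of the whole genome passed, and 1 of the 9 members tested, so the call is not particular to this gene. A second region seen in both inhibitory libraries and in no excitatory one lay just before this gene, at chr18:37086792-37088978. Over the whole alpha cluster H3K27me3 covered 0.0570% ± 0.0807 of bases in excitatory and 3.44% ± 1.07 in inhibitory neurons (SD, n = 2 each). The exact permutation test gave p = 0.333, the smallest value that 2 against 2 libraries allow. Relative to each library's genome-wide coverage the alpha cluster stood at 0.00696 in excitatory and 0.344 in inhibitory neurons. The inhibitory H3K27me3 lists covered 277 and 243 Mb of the genome, against 182 and 216 Mb for the excitatory lists.

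Both H3K4me3 and H3K27me3 were found at the same first exon for Pcdhb1 and Pcdhga1 in excitatory neurons, and for Pcdhac1, Pcdhga1 and Pcdhga4 in inhibitory neurons. These are 2 and 3 of the 58 members, against 11.9% and 14.3% of other genes with peaks of both marks in both libraries. None was left at −log10 p of at least 3, a cut that left 139 H3K27me3 windows of the whole genome to test, against 9521 without it.

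Along the locus, H3K4me3 covered more of the bases than of the genome as a whole, and H3K27me3 less. The ratio of the covered percent of the locus to that of the genome was 2.04 to 3.10 over the 4 H3K4me3 libraries, 0.953 to 1.49 for EGR1, 0.620 to 1.05 for H3K27ac, 0.495 to 0.797 for H3K4me1 and 0.362 to 0.592 for H3K27me3. The gamma cluster had the most H3K4me3, with 11.5% ± 3.48 of bases in excitatory and 13.0% ± 2.69 in inhibitory neurons (SD, n = 2 each). In the beta cluster EGR1 covered 0.114% ± 0.161 of bases in excitatory neurons and 0% in inhibitory neurons. For the locus and cluster totals the exact permutation test cannot go below p = 0.333 with 2 against 2 libraries, so it cannot decide whether the types differ. Totals whose groups did not overlap, such as H3K27ac in the gamma cluster, reached this value.

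**Figure D5:**
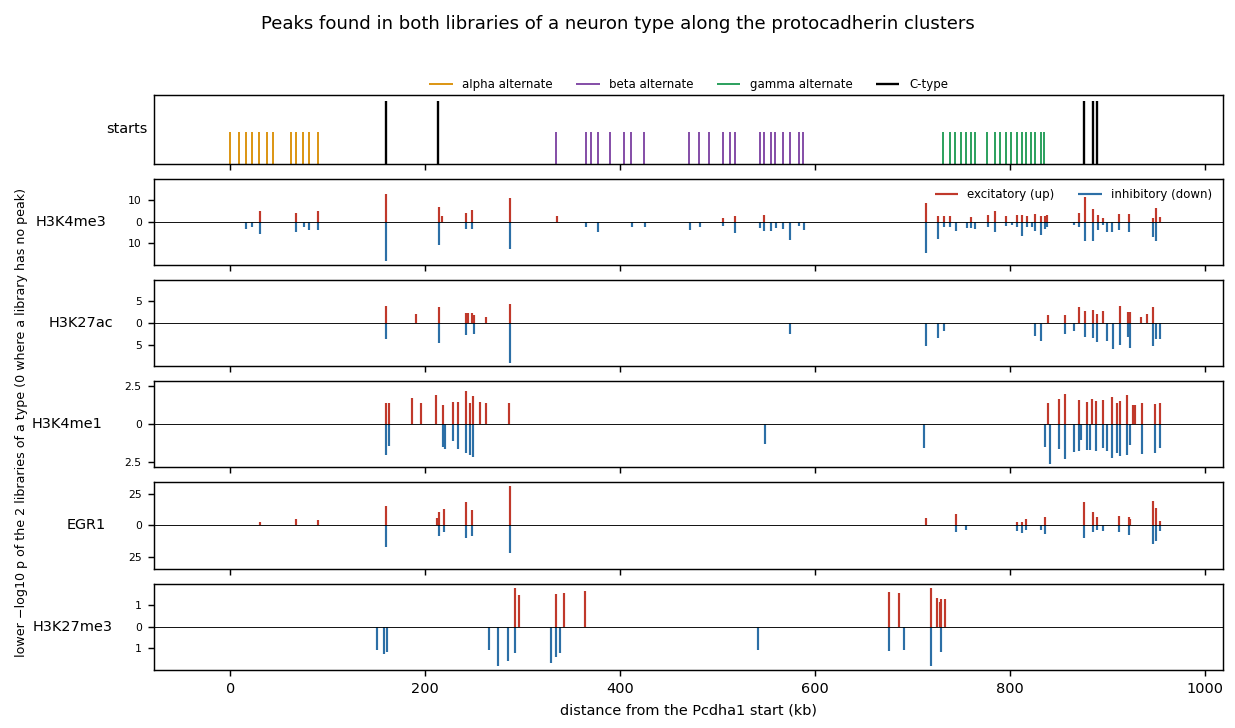
Peak regions along the locus against the distance from the Pcdha1 start (kb). Bar height is the lower −log10 p of the 2 libraries of a type, excitatory upward in red and inhibitory downward in blue, 0 where a library had no peak, and the top row shows the gene starts. H3K4me1 bars gather around the alpha C-type genes and behind them and around the gamma C-type genes, with 1 bar over the beta genes, and the tallest EGR1 bar stands between alpha and beta.

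Regions away from first exons carried the strongest EGR1 of the locus. The region chr18:37216758-37218544, 47.3 kb before Pcdhb1 between the alpha and beta clusters, had an EGR1 −log10 p of 31.4 and 31.3 in excitatory and 21.4 and 30.0 in inhibitory libraries. It also held H3K4me3 (14.7 and 11.0 in excitatory, 12.7 and 30.6 in inhibitory libraries) and H3K27ac (4.32 and 4.73 in excitatory, 9.58 and 9.12 in inhibitory libraries), on the same −log10 p scale. An enhancer of the alpha cluster, HS5-1, is known downstream of its constant exons, and the files name no such element. At chr18:37172090-37172936, 28.8 kb after the start of Pcdhac2, EGR1 reached 27.3 and 18.5 in excitatory and 9.53 and 18.8 in inhibitory libraries. Downstream of gamma, inside the neighbouring gene Diaph1 (a formin that assembles actin), EGR1 reached 22.9 and 19.2 in excitatory and 15.0 and 18.2 in inhibitory libraries at chr18:37877106-37877766. These p-values are the authors' and come from lists called separately, so they were not compared between neuron types.

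H3K4me1 was laid out in blocks. It covered 15.2% and 23.3% of the segment from Pcdhac1 to the end of the alpha cluster in excitatory libraries, and 16.5% and 14.0% in inhibitory libraries. From Pcdhgc3 to the end of the gamma cluster it covered 20.7% and 38.3% in excitatory and 27.1% and 30.7% in inhibitory libraries. Over the beta cluster it covered 0.437% and 0% in excitatory and 1.80% and 0.351% in inhibitory libraries. Of the regions found in all 4 libraries of an antibody, 17 of 21 for H3K4me1 and 8 of 13 for H3K27ac lay outside the member windows. For H3K4me3 and EGR1 11 of 35 and 9 of 19 lay outside them.

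Genes related by function were read in the same fit. Of 13 tested windows of the 12 non-clustered protocadherin genes, 4 fell and 1 rose in excitatory neurons for H3K4me3 (median difference -16.0 points, against -0.79 over all windows). Regulators of protocadherin promoter choice had 1 of 16 windows lower and 0 higher, the called gene being Stag2, a cohesin subunit, and intracellular partners had 1 of 14 lower and 0 higher, the called gene being Marcks, a membrane-bound actin regulator. The background was 2.41% of all windows lower and 3.77% higher, so 1 call in either list is no result about it. For the other 4 antibodies these lists had no call. Markers of cerebellar granule neurons, which the sort of a whole brain could hold, had 3 windows lower and 1 higher of 6 for H3K4me3 (median -37.4 points). Their part in the differences at the members was not tested.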

How the data were processed

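CUT&RUN peaks of 5 antibodies in excitatory and inhibitory nuclei were used, 2 libraries per group, grouped by title. Build mm10 and MACS2 2.2.5, Bowtie2 2.3.5, SAMtools 1.12, Picard 2.25.0, cutadapt 1.18 and Trim Galore 0.5.0 are named in the submitters' processing notes, without settings or controls. The authors deposited 1 list per library (broad for H3K4me1 and H3K27me3, narrow otherwise) with a fold enrichment (a ratio), a −log10 p-value, a −log10 q-value and an integer score per peak. These values are the authors' own, and values from separate lists are given side by side without a test. The lists hold no read counts, so depth is unknown and no counting interval is given. Labels gave the replicate numbers, although EGR1 peaks are named 3 and 4 inside the lists and the labels use 1 and 2.

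Autosomes 1 to 19 and the X chromosome were used. Gene positions came from RefSeq (GRCm38.p6, the assembly behind mm10). Strand was taken as plus for the members, whose strand the table used here does not give. It was known for the rest of 17332 genes, the 4297 others had a window at both ends, and 3 read-through models sharing a member's window were left out, leaving 25926 windows. The covered percent was quantile-normalized over the 4 libraries of an antibody and fitted with limma 3.58.1 (R 4.3.3, eBayes with trend) where at least 2 libraries had 1 covered base, with Benjamini-Hochberg adjustment over all windows and a threshold of 0.05. Differences are excitatory minus inhibitory on the normalized scale and levels are not normalized. The fit was tested on simulated data. Named genes were the C-type genes, members past the threshold or, under 5, the first 5 by p, the 5 with the highest mean, and those with the top-ranked peaks; others are given by pattern. The members, lists and rules were chosen with earlier results of these data known. Tests are two-sided.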

Additional observations from a re-analysis of the deposited data

How the results depend on the processing

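The H3K4me3 call at 2 members (Pcdhb15 and Pcdhb17) became 0 without quantile normalization, on the log2(percent + 1) scale, with no filter, with coverage in all 4 libraries, with peaks at −log10 p of at least 3 and with a window of 1000 bases on each side. It stayed at 2 with the replicate block and with equal numbers of strongest peaks, and ranged from 0 to 5 when 1 library was left out, where the lone library is assumed to vary like the other group. Calls over all windows moved with the setting as well. They were 942 of 15246 in the reported fit, 282 of 15246 without quantile normalization and 741 of 14033 at −log10 p of at least 3. With the window of 1000 bases they were 0 of 14379, and with the replicate block 1073 of 15246. The changes at members are therefore not particular to them. H3K27me3 had 1 call (Pcdhac1) among 9 members tested on the log2 scale, where 991 of 9521 windows were called, and 0 otherwise. All 47 remaining alternative counts of called members equalled those reported. Deviations of same-numbered libraries were hardly correlated, at 0.0185 (H3K4me1), 0.0555 (H3K4me3), 0.0249 (H3K27ac), 0.0342 (H3K27me3) and -0.0244 (EGR1). Such values cannot show whether the libraries were processed in pairs. With the replicate block, calls over all windows were 388 for H3K4me1, 264 for H3K27ac, 307 for H3K27me3 and 0 for EGR1, with 0 members among them. In the locus totals the block left the mean differences as they were (for example -0.462 points for H3K4me3, smallest possible p of 0.5).

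Differences in the covered percent of the locus, in points, ranged when 1 library was left out from -0.956 to 0.837 for H3K4me1, -2.105 to 1.182 for H3K4me3, -0.837 to 0.185 for H3K27ac, -3.38 to -0.488 for H3K27me3 and 0.243 to 0.625 for EGR1. For EGR1 the difference reversed to -0.195 with equal numbers of peaks and to -0.468 as a ratio to the genome. Single members reversed at H3K4me1 of Pcdhgc3 (-1.91, window of 1000 bases) and Pcdhga12 (1.85 with equal numbers, and -11.7 to 1.97 without 1 library), H3K27ac of Pcdhac1 (-23.6 to 3.49 without 1 library), H3K27me3 of Pcdhga4 (-2.34 to 0.264) and Pcdhga2 (-4.21 to 34.5), and EGR1 of Pcdhgc5 (-0.31 with equal numbers).

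At −log10 p of at least 3, members with a peak in both libraries numbered, in excitatory and inhibitory neurons, 0 and 0 for H3K4me1, 14 and 26 for H3K4me3, 2 (excitatory) for H3K27ac and 0 and 0 for H3K27me3, and no member kept both H3K4me3 and H3K27me3 (0 and 0). With at least 300 bases covered there were 3 for H3K4me1 (inhibitory), 1 and 3 for H3K27me3, 8 and 7 for EGR1 and 1 member with both marks (excitatory). Equal numbers of peaks gave 0 for H3K4me1 (excitatory), 2 for H3K27me3 (inhibitory) and 6 for EGR1 (excitatory), and the window of 1000 bases 3 for H3K27me3 (inhibitory). A single library gave 8 to 11 (excitatory) and 9 to 15 (inhibitory) for H3K4me1, 27 to 51 and 49 to 52 for H3K4me3, 7 to 19 and 15 to 16 for H3K27ac, 5 to 5 and 7 to 21 for H3K27me3 and 16 to 22 and 15 to 18 for EGR1. The cause of these shifts was not tested. At −log10 p of at least 3, 282 H3K4me1 and 139 H3K27me3 windows of the whole genome were left to test.

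With 2 libraries per group and no read counts, an absent peak at a member was not detectable at the depth of that library, which is unknown, and is not shown to be absent chromatin.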
